A study of Mus musculus with 12 samples.

Results

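The 12 libraries described here came from mouse tumours whose cancer cells carried MAVS again after reconstitution (6 libraries) or lacked it (6 libraries), compared with treatment balanced. The measure throughout was the mean of 2 log2 differences, reconstituted minus knockout under inhibitor treatment and reconstituted minus knockout under control treatment. All 12 of the 12 libraries and 17885 expressed genes entered, out of 45777 genes in the count table. Tumours were grown from 393P, a mouse lung cancer line, under the skin of male 129S2/SvPasCrl mice aged 8 weeks. The groups were MAVS reconstituted with MPS1i (BAY-1217389 at 5 mg/kg, 2 times daily for 2 days, tumours taken the day after), MAVS reconstituted with control treatment, MAVS knockout with the same MPS1i course, and MAVS knockout with control treatment, with 3 libraries in each. BAY-1217389 inhibits MPS1 (gene Ttk), the kinase of the spindle checkpoint. Each genotype was a cell population of its own, and what else sets the 2 populations apart cannot be told apart from MAVS. The sources used here do not explain the word Luc in the titles of the knockout libraries and do not give the number of clones behind each population. The host's own cells were not labelled as altered in Mavs.

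Libraries held 52983715 to 69108411 counts, and no replicate pair agreed within sampling noise (smallest chi-square per gene 31.5). On the first principal component (28.5% of the variance) reconstituted MPS1i replicate 1 stood at one end (-103) and reconstituted control replicate 2 at the other (48.6), and counts of calls without both are given below. Of 19 markers listed for epithelial tumour cells 14 were expressed, Epcam among them at 128 to 147 CPM (the count divided by the scaled library total and brought to a fixed total for all libraries) in reconstituted and 158 to 193 CPM in knockout libraries, while Cldn7 and Nkx2-1 had 0 counts in every library. The labels call the samples replicates without saying that each was a separate animal, so p-values rest on differences between these libraries, which exceeded sampling noise but may in part be technical. In tumour pieces, fewer cells of a type and less RNA per cell cannot be told apart.

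MAVS is the adaptor on the mitochondrial outer membrane that relays signals from RIG-I (gene Ddx58) and MDA5 (Ifih1), the cytosolic sensors of double-stranded RNA. It activates the kinases TBK1 and IKKε, which switch on the transcription factors IRF3 and IRF7 and with them type I interferon genes. Secreted interferon then acts through its receptor, the kinases JAK1 and TYK2, and a transcription factor complex that contains STAT2 and IRF9, which binds the interferon-stimulated response element (ISRE) in promoters of antiviral genes. In tumours the same genes can be switched on in cancer cells and in the host cells around them.

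Mavs itself (gene ID 228607, GRCm38.p6 chromosome 2, 131234063 to 131248025) was read in all libraries. Reconstituted MPS1i libraries held 50.1, 53.8 and 62.8 CPM and reconstituted control libraries 85.1, 68.9 and 59.1 CPM, against 43.5, 39.4 and 41.0 CPM in knockout MPS1i and 40.5, 42.5 and 45.7 CPM in knockout control libraries. Every reconstituted library was above every knockout library. Its log2 difference was 0.58 ± 0.09 (standard error, SE; edgeR quasi-likelihood test, Benjamini-Hochberg adjusted p = 0.0105), and an exact permutation of genotype within treatment gave p = 0.005 (two-sided), the smallest that the 400 arrangements allow. RNA of the introduced copy, of the edited gene and of Mavs in host cells falls into the same count.

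A gene was called where its edgeR adjusted p over all 17885 genes was below 0.05. That held for 279 genes (1.56%), of which 195 were higher in reconstituted tumours (1.09%) and 84 lower (0.47%). The rises were larger than the falls: the median log2 difference was 1.05 among genes called higher and -0.51 among genes called lower, beside 0.00028 over all genes tested. A difference of at least 1 log2 unit was reached by 103 of the 195 genes higher and 12 of the 84 lower. Called genes were 96.1% protein coding, against 82.8% of genes tested. Calls were also more frequent at higher levels, where a given difference is measured more precisely: 0.47%, 1.24% and 1.56% of the genes at low, middle and high mean level, in 3 classes of equal size, were called higher, and 0.168%, 0.436% and 0.805% were called lower. By a count that uses no model, all 6 reconstituted libraries lay above all 6 knockout libraries for 238 genes (1.33%) and below them for 140 (0.783%). Of the called genes, 146 of 195 higher and 53 of 84 lower were separated in this way.

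**Figure D1:**
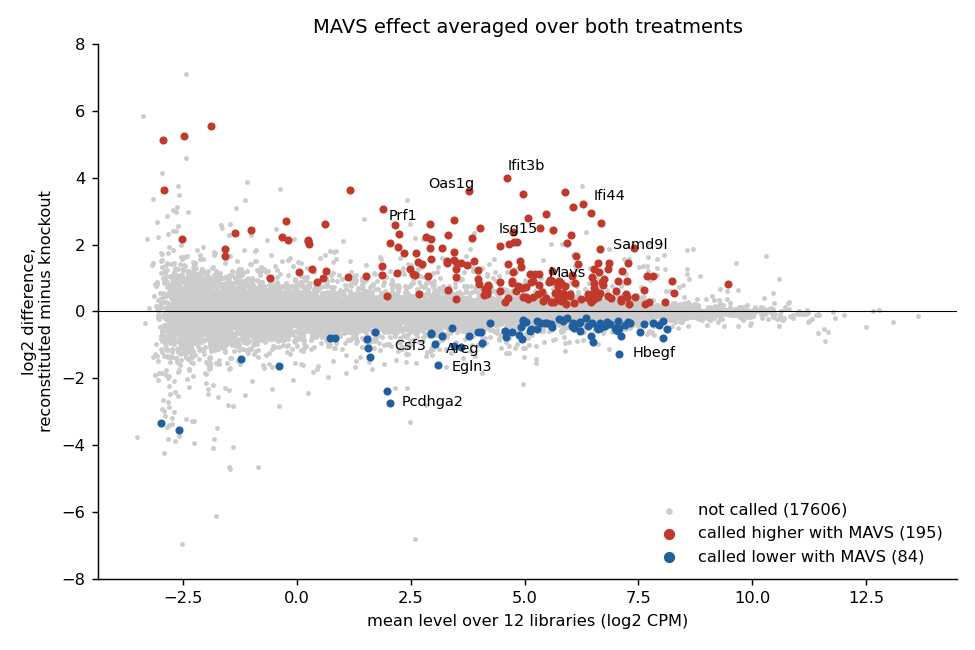
Log2 difference, reconstituted minus knockout, averaged over treatments (vertical axis), against mean level over 12 libraries in log2 CPM (horizontal axis), 1 point per gene, with the 195 genes called higher in red, the 84 called lower in blue and the rest in grey. The red points reach further from 0 than most of the blue ones, and Ifit3b (3.99) and Oas1g (3.60) are among the labelled genes at the top.

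The 15 largest rises among called, named genes with a mean of at least 1 log2 CPM were Ifit3b, Ifi27l2b, Oas1g, Ifit3, Ifit1, Ifi44, Apol9b, Ifit1bl1, Apol9a, Ifi27l2a, Oas1a, Cmpk2, Oasl2, Prf1 and Sectm1b, with log2 differences from 3.99 to 2.57. Nearly all are interferon-stimulated. Ifit3b is a tetratricopeptide protein of the family that binds viral RNA. It held 98.6, 45.1 and 44.2 CPM in reconstituted MPS1i and 27.9, 16.1 and 47.3 CPM in reconstituted control libraries, against 2.18, 3.64 and 2.86 CPM in knockout MPS1i and 4.44, 1.01 and 2.42 CPM in knockout control libraries. The lowest reconstituted library was above the highest knockout library by a wide margin, and the log2 difference was 3.99 ± 0.40 (SE, edgeR adjusted p = 0.00118). Oas1g belongs to the 2′-5′ oligoadenylate synthetases, which sense double-stranded RNA and activate RNase L. It held 48.7, 27.8 and 23.9 CPM in reconstituted MPS1i and 17.8, 12.6 and 22.8 CPM in reconstituted control libraries, against 1.54, 2.77 and 2.06 CPM in knockout MPS1i and 2.76, 1.53 and 1.44 CPM in knockout control libraries. The genotypes did not overlap here either (3.60 ± 0.27, edgeR adjusted p = 0.000257).

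Apol9b, an interferon-induced apolipoprotein L of rodents, held 268, 98.3 and 129 CPM in reconstituted MPS1i and 83.3, 44.6 and 101 CPM in reconstituted control libraries, against 7.68, 15.1 and 15.6 CPM in knockout MPS1i and 25.8, 4.97 and 8.24 CPM in knockout control libraries. The highest value was that of reconstituted MPS1i replicate 1, and the lowest reconstituted value, 44.6 CPM, still exceeded every knockout value. Samd9l, an interferon-induced restriction factor, had smaller differences but less spread: 149, 102 and 174 CPM in reconstituted MPS1i and 179, 139 and 203 CPM in reconstituted control libraries, against 47.6, 47.0 and 44.5 CPM in knockout MPS1i and 44.3, 30.6 and 44.6 CPM in knockout control libraries (1.87 ± 0.15, edgeR adjusted p = 0.000342). The first 14 of the 15 rises were separated between genotypes in all 12 libraries and called with any 1 library left out. The exception was Sectm1b, whose libraries overlapped, with a log2 difference of 3.93 under MPS1i and 1.21 in controls.

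**Figure D2:**
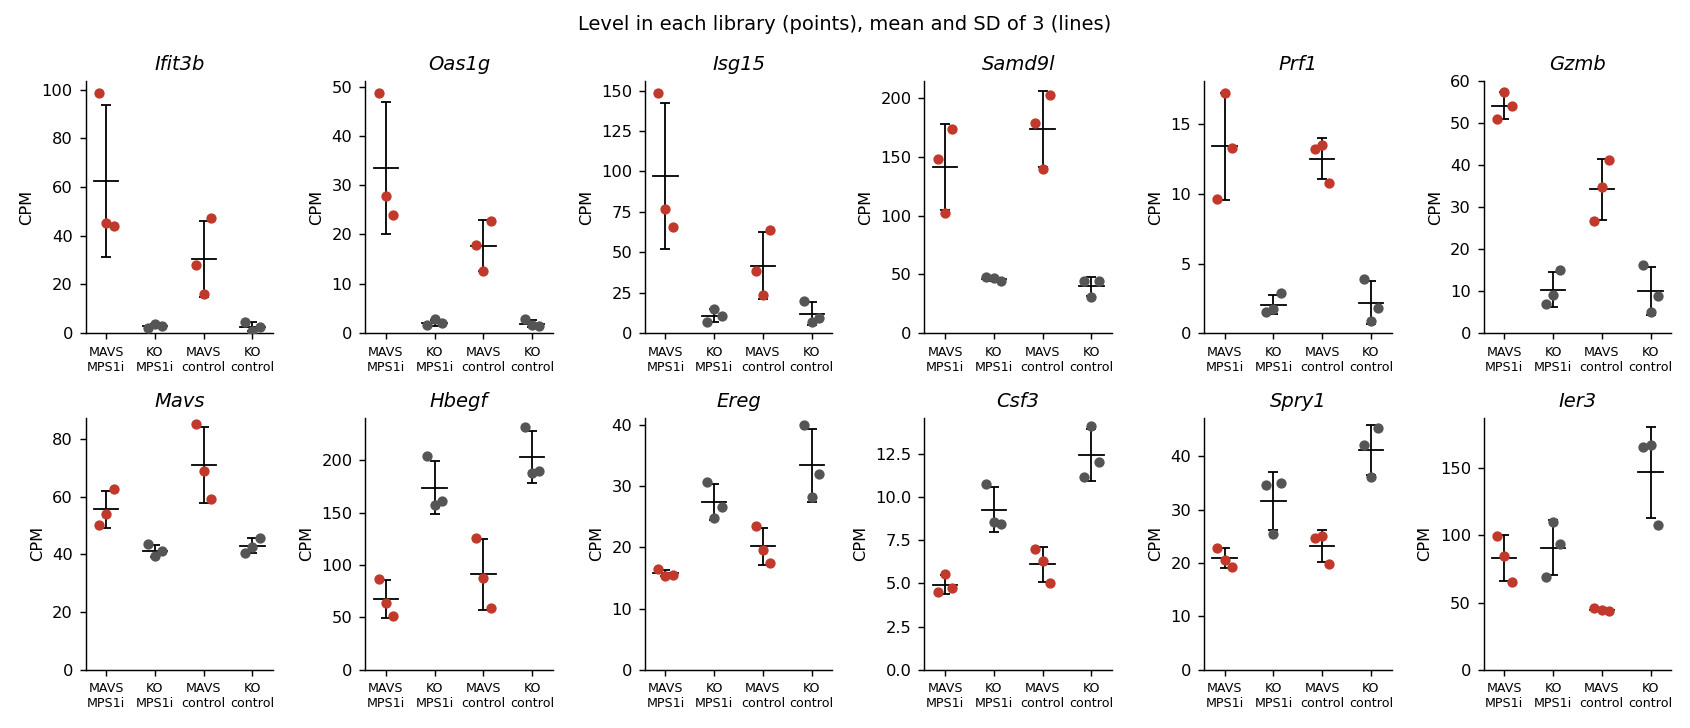
CPM (vertical axes, from 0) of 12 genes in every library, as points for the 3 libraries of each of 4 groups, with lines for mean and SD. Reconstituted groups (red) stand above knockout groups (grey) for the top row and for Mavs, below them for Hbegf, Ereg, Csf3 and Spry1, and overlap them for Ier3.

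Promoter windows of 300 bases (250 before to 50 after the transcription start) from RefSeq on GRCm38.p6 were searched on both strands for the ISRE core, which is GAAA followed by GAAA after a gap of 2 bases, since the largest rises were interferon-stimulated genes. A window was given for 13 of the 15 largest rises, and 8 of these held an ISRE core. Those of 3 genes follow, the largest rises with a core after keeping 1 gene per genomic neighbourhood, 5′ to 3′ along the gene, with capitals marking the matches. Ifit3b is on the plus strand at chr19:34607707-34608006, with matches on the opposite strand that begin 188 and 154 bases before the start site. Oas1g is on the minus strand at chr5:120887564-120887863, with overlapping matches on the gene's strand that begin 18 and 12 bases before the start. Apol9b is on the plus strand at chr15:77728822-77729121, with overlapping matches on the opposite strand that begin 37 and 31 bases before the start.
Ifit3b: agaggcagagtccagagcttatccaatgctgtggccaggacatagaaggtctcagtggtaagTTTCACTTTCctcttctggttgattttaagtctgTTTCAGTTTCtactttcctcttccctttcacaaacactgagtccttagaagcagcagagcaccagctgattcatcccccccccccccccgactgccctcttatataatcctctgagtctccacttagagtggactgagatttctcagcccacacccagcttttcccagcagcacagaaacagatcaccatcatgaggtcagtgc
Oas1g: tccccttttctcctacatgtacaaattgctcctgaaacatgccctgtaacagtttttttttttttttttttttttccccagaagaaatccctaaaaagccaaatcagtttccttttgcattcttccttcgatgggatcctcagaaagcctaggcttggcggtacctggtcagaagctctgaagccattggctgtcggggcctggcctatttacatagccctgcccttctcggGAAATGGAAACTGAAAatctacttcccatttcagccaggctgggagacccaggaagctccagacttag
Apol9b: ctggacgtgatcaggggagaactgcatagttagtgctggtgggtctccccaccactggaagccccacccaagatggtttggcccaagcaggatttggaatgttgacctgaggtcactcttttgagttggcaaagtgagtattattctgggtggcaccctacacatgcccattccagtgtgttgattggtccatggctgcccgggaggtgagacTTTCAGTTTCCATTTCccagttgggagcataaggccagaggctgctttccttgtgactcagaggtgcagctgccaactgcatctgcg

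A window was given for 156 of the 195 genes called higher, 60 of the 84 called lower and 12990 of the 17885 tested, some genes having several. The ISRE core was present in 47 of 200 windows (23.5%) of genes called higher and 2 of 89 windows (2.25%) of genes called lower, beside 524 of 16492 windows (3.18%) of all genes tested. Among genes called higher it was in 32 of 60 windows (53.3%) of members of the 7 interferon and presentation lists described next, and in 15 of 140 windows (10.7%) of the others. A longer form that also has T as the second base after the core, a subset of the core matches, was in 15.5% of windows of genes called higher, 0% of genes called lower and 0.776% of all. The interferon-gamma activated site TTCNNNGAA was in 11% of windows of genes called higher, 3.37% of genes called lower and 7.16% of all. AP-1 sites TGANTCA were in 11.5%, 10.1% and 6.08% of the same 3 sets of windows. Among genes called higher, AP-1 sites were in 26.7% of windows of members of the 7 lists and 5% of the others. The interferon-gamma site was in 8.33% and 12.1% of these. The hypoxia response core ACGTG was in 9.5% of windows of genes called higher, 28.1% of genes called lower and 23.9% of all. The E-box CACGTG, which overlaps ACGTG, was in 4%, 8.99% and 9.19%, and the NF-kB motif in 11.5%, 12.4% and 10.4%, in the same order. These shares describe letters in a window and were not tested.

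In 7 lists of interferon signalling and antigen presentation, 171 distinct genes were tested, of which 65 were called higher and 0 lower. That left 130 of the 195 genes called higher outside these lists. Mavs, in which the genotypes differ by design, is 1 of the 65. Over all genes tested, 1.09% were called higher and 0.47% lower. These and the later lists were written with earlier results of these data known. Among type I interferon-stimulated antiviral effectors, 44 of 58 members tested rose and 0 fell, with a median log2 difference of 1.42, beside 1.09% of all genes called higher. The median was 1.64 under MPS1i and 1.17 in controls, 57 of 58 were positive, and 31 of the 44 calls held with any 1 library left out. Summed over members, the list ran from 3055 to 8479 CPM in reconstituted and from 1809 to 2724 CPM in knockout libraries, without overlap. Other than the genes above, Oas2 averaged 32.1 ± 4.9 and 23.3 ± 7.6 CPM in reconstituted MPS1i and control libraries, against 4.33 ± 1.6 and 5.33 ± 1.5 CPM in knockout MPS1i and control libraries (SD, n = 3 each; log2 difference 2.51 ± 0.23, edgeR adjusted p = 0.000674).

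Of the RNA sensors and the MAVS pathway, 7 of 31 members rose and 0 fell (median 0.21), beside 1.09% of all genes called higher. They were the sensors Ddx58 (1.09 ± 0.14), Ifih1 (1.23 ± 0.17), Dhx58 (1.55) and Tlr7 (0.51), the ubiquitin ligase Trim25 (0.62 ± 0.08), Irf7 (2.28 ± 0.32) and Mavs. The genotypes differ in Mavs by design. Most of the 7, Irf7 foremost, are themselves interferon-stimulated. Irf7 held 173, 146 and 106 CPM in reconstituted MPS1i and 66.8, 49.2 and 109 CPM in reconstituted control libraries, against 14.8, 31.3 and 18.9 CPM in knockout MPS1i and 34.5, 10.7 and 16.7 CPM in knockout control libraries. The genotypes were separated in this gene, and MPS1i replicates 1 and 2 were the highest reconstituted libraries. Of the other members that act after the sensors, 5 examples that did not pass had log2 differences of 0.21 for the kinase gene Tbk1, 0.37 for Ikbke, 0.05 for Irf3, -0.02 for Traf3 and 0.00 for Traf6 after rounding. In the whole list of 31, 25 were positive, and 16 were higher and 1 lower at unadjusted p below 0.05. DESeq2 called 11 of the 31 higher and 1 lower.

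For the 2 lists that follow, the share of all genes called higher was 1.09%. Of interferon receptors, STATs and feedback genes, 3 of 17 rose (median 0.31): the deconjugase and receptor inhibitor Usp18 (2.07 ± 0.25), Stat2 (1.45 ± 0.19) and Irf9 (0.95 ± 0.14). Stat2 held 175, 139 and 199 CPM in reconstituted MPS1i and 96.2, 85.8 and 167 CPM in reconstituted control libraries, against 41.8, 69.3 and 52.8 CPM in knockout MPS1i and 60.9, 38.8 and 47.8 CPM in knockout control libraries. All reconstituted values were above all knockout values. The receptor gene Ifnar1 (0.00) and the kinase gene Jak1 (-0.03), the lowest of the list, did not pass. Of the 17, 16 were positive, 10 were higher at unadjusted p below 0.05 and 6 were called higher by DESeq2. ISG15 is a ubiquitin-like protein attached to newly made proteins, and 5 of 6 members of its conjugation list rose: Isg15 (2.49 ± 0.36, edgeR adjusted p = 0.00716), Usp18, Trim25, the ligase Herc6 (1.42 ± 0.26) and the activating enzyme Uba7 (0.90). Isg15 held 149, 76.9 and 65.8 CPM in reconstituted MPS1i and 38.2, 23.3 and 63.9 CPM in reconstituted control libraries, against 6.56, 15.1 and 10.8 CPM in knockout MPS1i and 20.1, 6.59 and 9.17 CPM in knockout control libraries. Reconstituted control replicate 2 and knockout control replicate 1 came closest to each other, without crossing.

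The interferon genes themselves were close to the limit of the counts. Only 2 of 19 ligand genes passed the filter on low counts, and neither was called. Ifng, the type II interferon of lymphocytes, averaged 6.07 ± 3.8 and 1.06 ± 1.2 CPM in reconstituted MPS1i and control libraries, against 0.947 ± 0.58 and 0.825 ± 0.21 CPM in knockout MPS1i and control libraries (SD, n = 3 each; 1.51 ± 0.55, edgeR adjusted p = 0.215). The other was Ifnz, a type I interferon gene of the mouse, at 0.084 to 0.243 CPM in reconstituted and 0.149 to 0.284 CPM in knockout libraries (-0.33 ± 0.31, edgeR adjusted p = 0.696). Ifnb1 had 7 counts in all 12 libraries together, and 8 ligand genes had 0 counts everywhere. For the 17 ligand genes removed by the filter, a difference was not detectable at this depth.

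DNA sensing genes were measured as a neighbouring pathway that does not use MAVS: 6 of 15 rose and 0 fell (median 1.07), with 15 of 15 higher at unadjusted p below 0.05 and 13 called by DESeq2. For this and the next 2 lists, the shares over all genes tested were 1.09% called higher and 0.47% called lower. All 6 reconstituted libraries lay above all 6 knockout libraries for 1.33% of genes tested. The 6 were Ifi203, Ifi204, Ifi205, Ifi207, Ifi209 and Mndal, all of the interferon-inducible Ifi200 family, between 0.92 and 1.26. The largest difference in the list, 3.11, was that of a member not called. The sensor and its adaptor did not pass: Cgas was at 0.52 and Tmem173, which encodes STING, at 0.32. Interferon-gamma-induced GTPases and chemokines had the highest list median of all, 1.56, with all 24 members positive, but only Gbp8 was called (1.34 ± 0.29, edgeR adjusted p = 0.0491), and 0 of the 24 were separated between genotypes. DESeq2 called 17 of these 24. Their summed level spread over 2262 to 16513 CPM in reconstituted and 1178 to 4225 CPM in knockout libraries, and their median difference was 2.15 under MPS1i and 0.91 in controls. MHC class I presentation genes, which display peptides to cytotoxic T cells, had 22 of 23 members positive, a median of 0.66 (1.12 under MPS1i, 0.21 in controls) and 1 call, the nonclassical class I gene H2-T24 (1.51 ± 0.23, edgeR adjusted p = 0.00908). Of the 23, 18 were higher at unadjusted p below 0.05 and 8 were called by DESeq2.

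**Figure D3:**
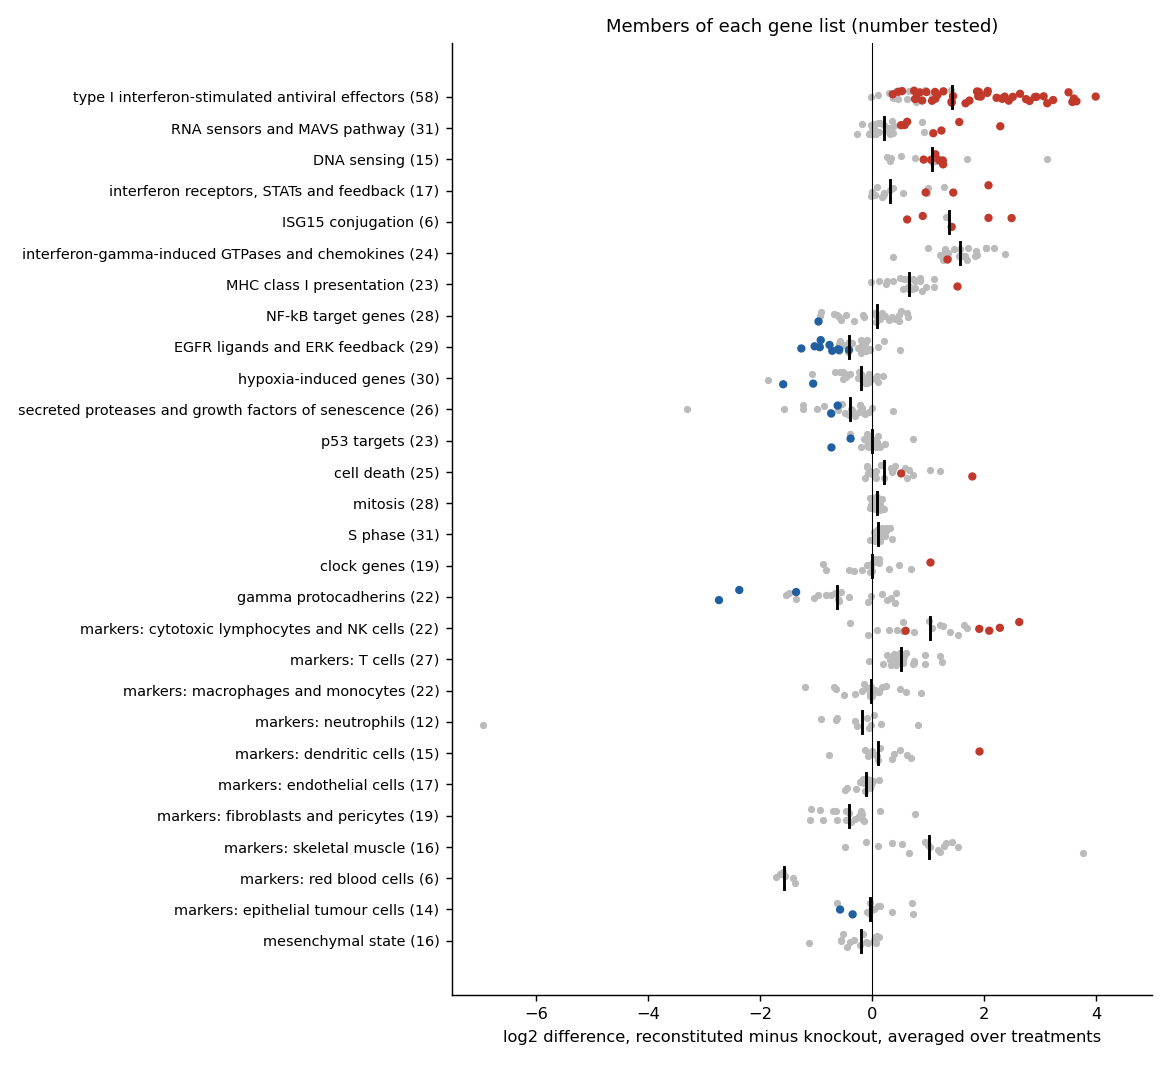
Log2 difference, reconstituted minus knockout, averaged over treatments (horizontal axis), of each tested member (points) of the gene lists with at least 6 tested members (rows, number tested in brackets), with called members in red or blue and the list median as a black bar. The interferon lists stand to the right of 0 and the list of EGFR ligands and ERK feedback to the left, while most cell type lists hold no called member. The leftmost point is Ngp, at 0 counts in every reconstituted library, whose fitted value depends on the prior count.

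Of 22 markers of cytotoxic lymphocytes and natural killer cells, 5 rose, 0 fell and 17 did not pass, beside 1.09% of all genes called higher (median 1.04, with 1.45 under MPS1i and 0.56 in controls): Prf1, which encodes the pore-forming perforin, the granzymes Gzma and Gzmb that enter target cells through it, the chemokine Ccl5, and the granzyme B inhibitor Serpinb9 (0.60). Prf1 held 9.62, 17.3 and 13.3 CPM in reconstituted MPS1i and 13.3, 13.5 and 10.8 CPM in reconstituted control libraries, against 1.54, 1.74 and 2.85 CPM in knockout MPS1i and 3.9, 0.86 and 1.77 CPM in knockout control libraries (2.62 ± 0.32, edgeR adjusted p = 0.0027). The genotypes were well apart, and values under the 2 treatments overlapped within each genotype. Gzmb held 51.1, 57.4 and 54.2 CPM in reconstituted MPS1i and 26.7, 34.7 and 41.4 CPM in reconstituted control libraries, against 6.9, 9.06 and 15 CPM in knockout MPS1i and 16.2, 5.04 and 8.76 CPM in knockout control libraries (2.09 ± 0.27, edgeR adjusted p = 0.00353). It too was separated. The additive model called 3 of the 22, and leaving out 1 library gave 3 to 7. Gzma was at 2.28 ± 0.38. Ccl5 was at 1.91 ± 0.33, with 2.85 under MPS1i and 0.97 in controls, and its genotypes overlapped.

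The 22 markers summed to 247 to 454 CPM in reconstituted and 176 to 233 CPM in knockout libraries, without overlap. T cell markers were called in 0 of 27 cases by edgeR (10 higher at unadjusted p below 0.05, 5 called by DESeq2), with a median of 0.51, 26 of 27 positive and sums of 99.0 to 201 CPM in reconstituted and 93.9 to 127 CPM in knockout libraries. The Gzmc and Gzmd genes beside Gzmb, outside the list, also rose (2.21 ± 0.46 and 2.15 ± 0.37, called in 2 and 9 of 12 fits with 1 library left out). The part of immune cell numbers in the interferon gene differences was not tested.

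Other cell types gave few calls. Macrophage and monocyte markers had a median of -0.03 with 0 of 22 called by edgeR (3 higher and 1 lower at unadjusted p below 0.05, 2 by DESeq2), and endothelial markers -0.11 with 0 of 17 called by edgeR (2 lower unadjusted, 1 by DESeq2). Fibroblast and pericyte markers had a median of -0.41 with 0 of 19 called by edgeR (7 lower unadjusted, 0 by DESeq2) and sums of 4477 to 12496 CPM in reconstituted and 10814 to 21882 CPM in knockout libraries. All 6 red cell markers tested were negative (median -1.57) with 0 called by edgeR (6 unadjusted, 3 by DESeq2) and sums of 32.5 to 112 CPM in reconstituted and 49.4 to 295 CPM in knockout libraries, while Epb42 was at 0 counts. Skeletal muscle markers varied most between pieces, at 4.36 to 3339 CPM in reconstituted and 20.7 to 1003 CPM in knockout libraries, the highest in reconstituted MPS1i replicate 1, with 0 of 16 called by edgeR (1 unadjusted, 0 by DESeq2). Of dendritic cell markers only Bst2 was called (1.90 ± 0.34), which encodes the antiviral tetherin and is also in the list of effectors. Of epithelial markers Cldn4 (-0.57 ± 0.11) and Epcam (-0.35 ± 0.07) fell, Epcam being called in 5 of 12 fits with 1 library left out. The part of these cell types in the results was not tested.

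Among the lists, the most falls were found for EGFR ligands and ERK feedback genes, 9 of 29 lower and 0 higher, beside 0.47% of all genes called lower (median -0.42, 26 of 29 negative). This list was written with earlier results of these data known, so its share is a description only. EGFR ligands are shed growth factors that activate the ERK cascade, and ERK in turn induces its own inhibitors. Among the ligands, Hbegf, the heparin-binding one, held 86.8, 63.5 and 51.2 CPM in reconstituted MPS1i and 126, 87.9 and 58.7 CPM in reconstituted control libraries, against 203, 157 and 161 CPM in knockout MPS1i and 231, 188 and 190 CPM in knockout control libraries. Every reconstituted library was below every knockout library (-1.27 ± 0.18, edgeR adjusted p = 0.00666). Ereg, which encodes epiregulin, held 16.4, 15.4 and 15.6 CPM in reconstituted MPS1i and 23.5, 19.6 and 17.4 CPM in reconstituted control libraries, against 30.7, 24.9 and 26.7 CPM in knockout MPS1i and 40.0, 28.3 and 32.0 CPM in knockout control libraries (-0.76 ± 0.10, edgeR adjusted p = 0.00411). Its genotypes were separated by a narrow gap. Areg, which encodes amphiregulin and lies next to Ereg on chromosome 5, fell as well (-0.94 ± 0.15), whereas Tgfa (-0.20) and the receptor gene Egfr (-0.37) did not pass.

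Among the inhibitors, the Sprouty genes Spry1 (-0.71 ± 0.10), Spry2 (-0.61 ± 0.10) and Spry4 (-1.03 ± 0.20), the EGFR inhibitor Errfi1 (-0.59 ± 0.09) and the ERK phosphatase Dusp6 (-0.42 ± 0.09) fell, with Spry4 called in 4 and Dusp6 in 3 of 12 fits with 1 library left out. Spry1 held 22.9, 20.6 and 19.2 CPM in reconstituted MPS1i and 24.6, 25.2 and 19.7 CPM in reconstituted control libraries, against 34.7, 25.3 and 34.9 CPM in knockout MPS1i and 42.1, 36.2 and 45.4 CPM in knockout control libraries. The gap between genotypes was smallest between reconstituted control replicate 2 and knockout MPS1i replicate 2. The whole list summed to 1182 to 1555 CPM in reconstituted and 1638 to 2005 CPM in knockout libraries, without overlap, and 7 of its 9 calls held with any 1 library left out. Dusp4 (-0.58), Phlda1 (-0.59) and Myc (-0.42) were negative and did not pass.

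Among NF-kB target genes 1 of 28 was called lower by edgeR and 0 higher, beside 0.47% and 1.09% of all genes. At unadjusted p below 0.05, 7 were lower and 6 higher, and DESeq2 called 5 lower and 3 higher. The edgeR call was Csf3, which encodes the granulocyte growth factor G-CSF. It held 4.49, 5.54 and 4.71 CPM in reconstituted MPS1i and 7.02, 6.3 and 5.01 CPM in reconstituted control libraries, against 10.8, 8.56 and 8.45 CPM in knockout MPS1i and 11.2, 14.1 and 12 CPM in knockout control libraries. Libraries of the genotypes did not overlap (-0.97 ± 0.12, edgeR adjusted p = 0.00249). Markers of neutrophils, the cells that G-CSF mobilises, were called in 0 of 12 cases by edgeR (2 lower unadjusted, 1 by DESeq2). Of p53 targets, Plk2 (-0.73 ± 0.09) and Pmaip1 (-0.39 ± 0.08), which encodes the death protein NOXA, fell, the other 21 of 23 did not pass, and the median was 0.00. Pmaip1 was called in 1 of 12 fits with 1 library left out. Of secreted proteases and growth factors of senescence, the urokinase gene Plau (-0.73 ± 0.15) and Igfbp3 (-0.62 ± 0.13) fell, with 25 of 26 negative. Plau and Igfbp3 were each called in 3 of those 12 fits. Of the 26, 15 were lower at unadjusted p below 0.05 and 9 were called lower by DESeq2.

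Several of the largest falls lost their call when 1 library was left out. The hypoxia-induced prolyl hydroxylase gene Egln3 (-1.59 ± 0.34) and the placental growth factor gene Pgf (-1.05 ± 0.23) were the 2 of 30 hypoxia genes called. Over all genes tested, 0.47% were called lower. At unadjusted p below 0.05, 10 of the 30 were lower and 1 higher, and DESeq2 called 4 lower. Egln3 was at -0.70 under MPS1i and -2.48 in controls. Egln3 and Pgf each kept the edgeR call in only 2 of 12 fits with 1 library left out. The receptor kinase gene Ret (-1.09 ± 0.24) kept it in 1. Pcdhga1 (-2.37), Pcdhga2 (-2.74) and Pcdhga3 (-1.36) were 3 of 22 gamma protocadherin genes, which share their last exons, so that reads may be split among them. Pcdhga2 was at 0.984 ± 0.38 and 1.17 ± 0.31 CPM in reconstituted MPS1i and control libraries, against 6.73 ± 3.9 and 7.63 ± 5.7 CPM in knockout MPS1i and control libraries (SD, n = 3 each), with 1 knockout control library at 1.08 CPM. The other large falls were Ankrd1 (-0.80 ± 0.14), Nrep (-0.83 ± 0.16) and the potassium channel gene Kcnk2 (-0.82 ± 0.16), called in 11, 4 and 5 of 12 such fits. Among the 15 largest falls, Nrep, Hbegf, Pcdhga1 to Pcdhga3 and Spry4 all lie on chromosome 18, between 33437019 and 38601347. Hbegf and Spry4 are also members of the list of EGFR ligands and ERK feedback. The rest of the 15 lie on other chromosomes. A difference between the 2 populations in this region was not tested.

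Lists of clock, division and death genes were also counted, beside 1.09% of all genes called higher. Per1, a clock repressor that steroid hormones also induce, rose as 1 of 19 clock genes. It held 96.7, 112 and 130 CPM in reconstituted MPS1i and 108, 134 and 131 CPM in reconstituted control libraries, against 67.8, 69.9 and 66.7 CPM in knockout MPS1i and 40.3, 44.4 and 63.7 CPM in knockout control libraries (1.03 ± 0.12, edgeR adjusted p = 0.00196). All reconstituted libraries were higher. Among cell death genes, Tnfsf10, which encodes the death ligand TRAIL (1.79 ± 0.35), and Daxx (0.52 ± 0.09) rose, and 23 of 25 did not pass. Tnfsf10 was called in 5 of 12 fits with 1 library left out. Of the 25, 12 were higher at unadjusted p below 0.05 and 9 were called higher by DESeq2. Mitosis genes had a median of 0.08 with 0 of 28 called by edgeR (1 higher unadjusted, 0 by DESeq2), and S phase genes 0.10 with 0 of 31 called (5 higher unadjusted, 1 by DESeq2).

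The average could hide unequal effects, so each treatment was also taken alone. Under MPS1i 116 genes were called by edgeR (0.649%), 93 higher (0.52%) and 23 lower (0.129%), and in controls 25 (0.14%), 21 higher (0.117%) and 4 lower (0.0224%), each from 3 libraries against 3. Of the 195 genes higher in the average, 87 were also called under MPS1i, 20 in controls and 15 in both, and 103 were called in neither alone. Of the 84 lower, 16 were called under MPS1i, 3 in controls and 1 in both, and 66 in neither. All 195 genes called higher had the same sign in both treatments, with medians of 1.15 under MPS1i and 0.88 in controls. Among genes called lower 1 of 84 had opposite signs, and the medians were -0.51 under MPS1i and -0.47 in controls. The 2 effects enter the average, so shared sign is partly fixed by the call itself.

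The test of the difference between the 2 effects called 0 genes by edgeR (smallest adjusted p = 0.144), though 4421 genes (24.7%) were at unadjusted p below 0.05, DESeq2 called 1345 and limma-voom 3405. Among genes of the average, that unadjusted p was reached by 21 of 195 higher and 19 of 84 lower. Ier3, an immediate early gene of ERK and NF-kB signalling, held 99.5, 84.6 and 65.0 CPM in reconstituted MPS1i and 45.7, 44.6 and 43.9 CPM in reconstituted control libraries, against 69.0, 110 and 93.3 CPM in knockout MPS1i and 166, 167 and 108 CPM in knockout control libraries. Its genotypes were apart in controls (-1.71) and overlapped under MPS1i (-0.13), with an average of -0.92 ± 0.15. The difference between its 2 effects was not called (edgeR unadjusted p = 0.000202, adjusted p = 0.144). Pcdhga3 was at -3.00 under MPS1i and 0.28 in controls, and its difference was not called either (edgeR unadjusted p = 6.17e-05, adjusted p = 0.144).

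**Figure D4:**
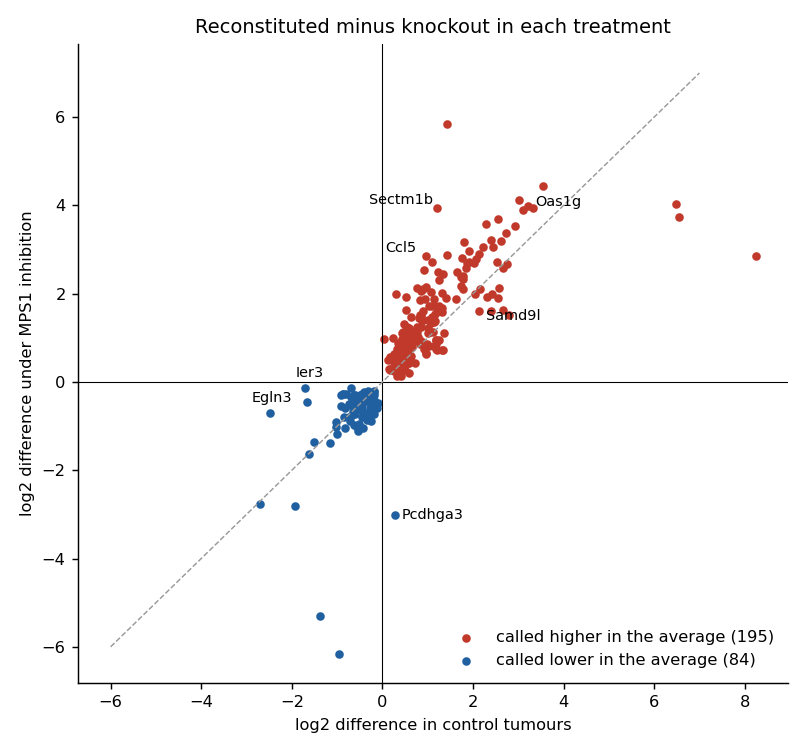
Log2 difference, reconstituted minus knockout, under MPS1 inhibition (vertical axis) against that in control tumours (horizontal axis), for the 279 genes called in the average, higher in red and lower in blue, with equal effects on the dashed line. Red points lie above and to the right of 0, and 144 of 195 are larger under MPS1i, while Ier3 and Pcdhga3 are far from the line. The same count over all genes tested was not made, and the test of the difference called 0 genes by edgeR.

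Positions of called genes were also compared, as a description only. Genes tested in general were not joined in the same way, so no share over all genes stands beside these counts. Each stretch ran from its first to its last called gene, which by itself raises the share called inside it. Joining called genes at most 200000 bases apart gave 10 stretches with at least 3 genes called higher, which held 53 of the 195, and 1 stretch with 3 called lower (the gamma protocadherins). On GRCm38.p6 the Ifi200 cluster (chromosome 1, 173521311 to 174031755) held 9 called genes of 13 tested, the Sp100, Sp110 and Sp140 stretch (chromosome 1, 85026349 to 85709998) 8 of 13, and the Trim30 and Trim34 stretch (chromosome 7, 104244448 to 104507853) 7 of 11. The Oas cluster (chromosome 5, 120730333 to 120907544) held 6 of 7, the Schlafen cluster (chromosome 11, 82974316 to 83190216) 6 of 9 and the Ifit cluster (chromosome 19, 34550550 to 34662981) 5 of 6. Genes in these clusters are close copies of each other, as are Apol9a and Apol9b, Ifi27l2a and Ifi27l2b, and Gzmc and Gzmd, and the sources used here do not say how shared reads were counted. Values of single copies are therefore uncertain.

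With each library left out in turn, 89 to 251 genes were called higher and 26 to 130 lower. Calls that held in all 12 such fits numbered 103, of which 84 were higher (0.47% of genes tested) and 19 lower (0.106%). The 19 falls were Areg, Cdkn2b, Csf3, Dennd2a, Ereg, Errfi1, Fam126b, Hbegf, Ier3, Kctd5, Nefl, Nrarp, Plk2, Pxdc1, Qrfp, Socs5, Spry1, Spry2 and Tgif1. At the other end, 46 of 195 rises and 32 of 84 falls were called in 3 fits or fewer. Genes called higher fell to 89 without knockout MPS1i replicate 1, 114 without knockout MPS1i replicate 2, 112 without knockout MPS1i replicate 3, 106 without knockout control replicate 2 and 129 without reconstituted control replicate 3. Without both libraries at the ends of the first principal component 131 genes were called higher, 124 of them among the 195, and 39 lower, 27 of them among the 84.

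**Figure D5:**
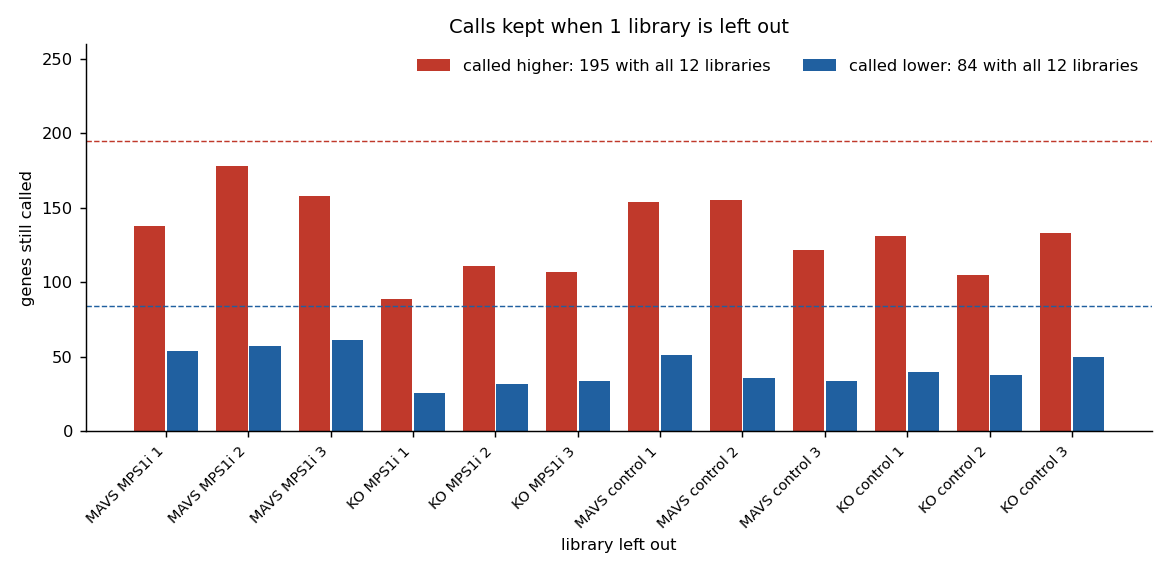
Number of the 195 genes called higher (red) and the 84 called lower (blue) that were still called (vertical axis) when the library on the horizontal axis was left out, with dashed lines at the numbers with all 12 libraries. The shortest bars, 89 and 26, are those without knockout MPS1i replicate 1.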

How the data were processed

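RNA was sequenced in 12 stranded polyadenylated tumour libraries, per the labels' protocols. The authors deposited whole-number counts per gene under NCBI Gene IDs, and the values show no normalization. Trimmomatic, HISAT2, StringTie and GRCm38 (mm10) are listed in the submitters' processing notes, without roles. The sources used here give no counting rules for strand or shared reads. Groups came from the labels. Genes were filtered with filterByExpr, scaled with TMM factors, and tested with edgeR 4.0.16 (quasi-likelihood F test, R 4.3.3) in 1 model with a mean per group over 12 libraries, with Benjamini-Hochberg adjustment over 17885 genes and calls below 0.05. The fit was tested on simulated data. CPM are counts brought to a fixed total after TMM scaling. Alternatives were RLE scaling, no filter, CPM of at least 1 in at least 6 libraries, DESeq2 1.42.0, limma-voom (limma 3.58.1), additive, genotype-only and replicate-block models, fits to the 6 libraries of a treatment, and leaving out libraries. The 31 lists, the motifs and the comparison were chosen with earlier results of these data known. Named genes were Mavs, the 15 largest rises and falls at a mean of at least 1 log2 CPM without predicted genes, and up to 4 called members per list by p (up to 2 uncalled where none was called), beside members named to complete a list and others said to be chosen after their values were seen. RefSeq GRCm38.p6 gave positions for 17842 genes. Values of 3 listed genes are not reported here.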

Additional observations from a re-analysis of the deposited data

How the results depend on the processing

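The averaged effect gave 195 genes higher and 84 lower. DESeq2 gave 603 and 424 and limma-voom with quality weights 403 and 333, including 191 and 82, and 178 and 78, of the same genes. Genes called lower numbered 55 in the additive model, 51 with genotype alone and 39 when the 2 outermost libraries on the first principal component were left out, an alternative chosen after seeing the data. Leaving out 1 library gave 89 to 251 higher and 26 to 130 lower. Genes lower changed by over 1.5 times without any knockout MPS1i library (26, 32 and 36), knockout control replicate 1 (42) or 2 (41), reconstituted control replicate 2 (37) or 3 (39), or reconstituted MPS1i replicate 3 (130). Under MPS1i, 116 calls became 1226 with DESeq2, 934 with limma-voom, 64 in a fit to those 6 libraries, 43 with a replicate block, 23 without the 2 outermost libraries and 0 to 2816 with 1 library left out. In controls, 25 calls became 827 with DESeq2, 2097 with limma-voom, 10 with only 6 libraries, 15 with a replicate block and 0 to 80 with 1 library left out. The difference between the 2 effects had 0 calls, 1345 with DESeq2, 3405 with limma-voom and 0 to 4005 with 1 library left out, the 4005 without reconstituted MPS1i replicate 3. Genes separated between genotypes numbered 263 to 330 higher and 165 to 239 lower with 1 library left out, since fewer libraries have to be separated. ISRE shares with the longer motif were 15.5%, 0% and 0.776%. Cytotoxic markers called were 13 with DESeq2 or limma-voom, 3 in the additive model and 3 to 7 with 1 library left out. Antiviral effectors called ranged from 32 to 44 and EGFR and ERK genes from 7 to 10 there. Muscle genes that passed no test turned sign: Ckm was -0.39 with limma-voom, and Myh4 -2.59 with limma-voom and -0.36 with a replicate block. Other values of named genes kept direction and side of the threshold in 1631 cases, lost the call in 205 and gained it in 24. Same-numbered libraries deviated together (r above 0.1) in 9 of 18 pairs (range -0.113 to 0.308), so the numbers were not taken as pairs; the replicate block gave 148 higher and 59 lower, 141 and 51 of them shared. The cause of these changes was not tested. Of the genes named by rule, Egln3, Epcam, Gbp8, Igfbp3, Kcnk2, Nrep, Pcdhga1 to Pcdhga3, Pgf, Plau, Pmaip1, Ret, Spry4 and Tnfsf10 were each called in at most 5 of 12 fits with 1 library left out. Depth limited genes with few counts, such as the 17 interferon genes removed by the filter.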

Other observations

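The following genes were chosen after their values were seen, from the 279 called. They are single genes, and no list they may belong to was counted. Lower in reconstituted tumours were Nrarp, a feedback gene of Notch signalling (-0.51 ± 0.07), the Notch target Hes1 (-0.54) and the Notch ligand genes Jag1 (-0.50) and Dll4 (-0.67). Nrarp kept its call in all 12 fits with 1 library left out, Jag1 in 1, and Hes1 and Dll4 not in all. Also called lower were the ephrin receptor gene Epha2, at -0.54 ± 0.09, the ephrin gene Efnb2 at -0.44 ± 0.08, Wnt7b at -0.39 ± 0.07 and Pdgfb at -0.46 ± 0.09. Epha2 held 219, 207 and 201 CPM in reconstituted MPS1i and 292, 244 and 206 CPM in reconstituted control libraries, against 360, 305 and 308 CPM in knockout MPS1i and 375, 294 and 339 CPM in knockout control libraries. The highest reconstituted value, 292 CPM, was just below the lowest knockout value, 294 CPM.

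Tsc22d3, which encodes the glucocorticoid-induced protein GILZ, held 427, 398 and 458 CPM in reconstituted MPS1i and 293, 389 and 414 CPM in reconstituted control libraries, against 223, 231 and 253 CPM in knockout MPS1i and 158, 177 and 219 CPM in knockout control libraries (0.92 ± 0.10, edgeR adjusted p = 0.00174). All reconstituted libraries were above all knockout libraries, and the kinase gene Sgk1 was at 0.43 ± 0.08. Also called higher were Il2rb, the interleukin-2 receptor beta chain, at 1.45 ± 0.26, Il18r1 at 0.73 ± 0.12, the phosphatase gene Ptpn6 at 0.51 ± 0.06 and the lectin gene Siglec1 at 0.90 ± 0.15. Siglec1 is expressed in macrophages. Of the 22 listed macrophage and monocyte markers, edgeR called 0 and DESeq2 called 2 higher, and 13 were negative. Their median was 0.26 under MPS1i and -0.32 in controls. The part of macrophage numbers in the Siglec1 difference was not tested. The smallest adjusted p of the comparison in edgeR, 0.000257, was shared by Oas1g and the predicted noncoding gene Gm20559 on chromosome 6 (2.02 ± 0.15).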
